A study of Mus musculus with 41 samples.

Results

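The 47 genes described here encode the contractile apparatus of skeletal muscle, its calcium handling and the isoforms that mark fibre types, and their mRNA was measured by RNA-seq in the tibiae of 41 mice. They were chosen by gene symbol from the 43346 genes counted, and by role they comprise 12 thick filament genes, 11 thin filament genes, 12 genes of the Z-disc and of titin, 10 calcium handling genes, and Ckm and Mb for energy and oxygen. All mice were female, carried the INK-ATTAC transgene on a C57BL/6 background and gave 1 library each from tibia diaphyses, which were centrifuged to remove marrow. The transgene is driven by the p16 promoter and makes cells that use this promoter sensitive to the dimerizing drug AP20187 (AP). The young mice (n = 12) were 6 to 12 months old by the labels and carried a vehicle label. The old mice received vehicle (n = 13) or 10 mg of AP per kg body mass (n = 16), dosed 2 times a week from 20 months of age over 4 months, so that they were 24 months old at the end. Total counts per mouse ranged from 37028959 to 75942717. The comparisons ask how these genes differ with age (old + vehicle-treated against young), with clearance of p16-expressing cells (old + AP-treated against old + vehicle-treated), and whether old mice given AP still differ from young ones.

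In a sarcomere, thick filaments of myosin pull on thin filaments of actin, which are anchored at the Z-disc, while titin spans from the Z-disc to the centre. Contraction starts when the voltage sensor Cacna1s opens the ryanodine receptor Ryr1, calcium leaves the sarcoplasmic reticulum and binds troponin C, and it ends when the SERCA pumps (Atp2a1 and Atp2a2) return the calcium to its store. Fast and slow fibres use different genes for many of these parts: Myh4, Myh1 and Myh2 are the fast myosin heavy chains of type 2B, 2X and 2A fibres, Myh7 is the slow myosin heavy chain, and each troponin subunit has a fast gene (Tnnt3, Tnni2, Tnnc2) and a slow gene (Tnnt1, Tnni1, Tnnc1). Myh3 and Myh8 are the embryonic and perinatal myosin heavy chains. Mouse leg muscle is mostly fast.

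Promoters are shown for the actin gene Acta1, the member with the highest level per length, for the slow myosin gene Myh7 and for the fast fibre calcium buffer Pvalb, whose levels moved in different directions with age at matched muscle level. They are RefSeq sequences of GRCm38.p6, from 250 bases before to 50 bases after an annotated start (for Myh7 and Pvalb 1 of 2 listed starts), read 5′ to 3′ on the minus strand of chr8:123894726-123895025 for Acta1, chr14:54994577-54994876 for Myh7 and chr15:78206351-78206650 for Pvalb. Capitals mark matches to CAGCTG (an E-box), TATAAA, a MEF2 site or a CArG box, searched on both strands. TATAAA and the MEF2 site can overlap.
Acta1: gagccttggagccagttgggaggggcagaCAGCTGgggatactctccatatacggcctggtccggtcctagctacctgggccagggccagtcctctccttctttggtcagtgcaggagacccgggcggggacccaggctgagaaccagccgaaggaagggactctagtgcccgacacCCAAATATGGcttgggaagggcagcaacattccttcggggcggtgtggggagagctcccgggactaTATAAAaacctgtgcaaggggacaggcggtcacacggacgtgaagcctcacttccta
Myh7: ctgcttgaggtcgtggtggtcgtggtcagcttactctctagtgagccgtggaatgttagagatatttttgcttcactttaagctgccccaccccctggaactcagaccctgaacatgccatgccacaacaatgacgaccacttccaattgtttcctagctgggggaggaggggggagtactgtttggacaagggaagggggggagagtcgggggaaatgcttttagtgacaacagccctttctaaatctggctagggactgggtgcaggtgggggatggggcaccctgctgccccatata
Pvalb: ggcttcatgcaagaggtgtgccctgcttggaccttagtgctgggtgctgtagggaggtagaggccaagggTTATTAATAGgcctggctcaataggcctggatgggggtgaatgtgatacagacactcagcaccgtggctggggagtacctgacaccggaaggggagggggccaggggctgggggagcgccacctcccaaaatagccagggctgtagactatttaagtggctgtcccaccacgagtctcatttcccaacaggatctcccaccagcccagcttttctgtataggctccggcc
In the Acta1 sequence CAGCTG began 221 bases, the CArG box 73 bases and TATAAA 7 bases before the annotated start. The MEF2 site of Pvalb began 180 bases before the start, and the window shown for Myh7 held none of the 4 motifs. Promoters were listed for 36 of the 47 members. CAGCTG was present in 15 of these 36 (41.7%) against 16.1% of 27025 mouse promoters, TATAAA in 9 against 14.2%, a MEF2 site in 7 against 3.26% and a CArG box in 4 against 1.57%. These are letter matches in a short window and a description only.

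The members were abundant in every library, although the samples are labelled as bone. Together they took 1.84% to 18.9% of all counts (median 9.63%). The young mice ranged from 3.58% to 15.3% (median 7.84%), the old + vehicle-treated mice from 3.43% to 18.9% (median 11.6%) and the old + AP-treated mice from 1.84% to 15.8% (median 9.21%). The 3 ranges overlapped over most of their length. In bulk tissue a smaller amount of muscle and less mRNA per fibre cannot be told apart. Osteoblast and osteocyte markers were present in every group as well, and their 10 summed genes ranged from 34017 to 88778 CPM (counts scaled to a common library size by TMM) in young, from 15358 to 77433 in old + vehicle-treated and in old + AP-treated mice from 6863 to 68971, with medians of 67964, 40350 and 32270. Of these 10, 2 were higher and 4 lower in old + vehicle-treated against young mice, where 4.3% of all tested genes were called higher and 4.76% lower (edgeR, adjusted p under 0.05 with an absolute log2 fold change over 0.5), and the part of the bone cells in the values below was not tested. The 7 erythroid markers summed to 5497 to 22165 CPM in young (median 9907), to 2027 to 11775 in old + vehicle-treated (median 5920) and to 2494 to 18880 in old + AP-treated mice (median 5630), and 3 of 7 were lower in old + vehicle-treated against young mice, beside the same 4.76%. Over the 41 mice, which share library totals across genes, the within-group correlation of the erythroid sum (log2 CPM) was r = -0.66 with Ryr1, -0.65 with Tpm1, -0.65 with Des and -0.21 with Myh7. That of the osteoblast and osteocyte sum was -0.45 with Tpm3, -0.39 with Atp2a2, -0.35 with Myh7 and -0.23 with Ryr1. The part of erythroid cells in these values was not tested.

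**Figure D1:**
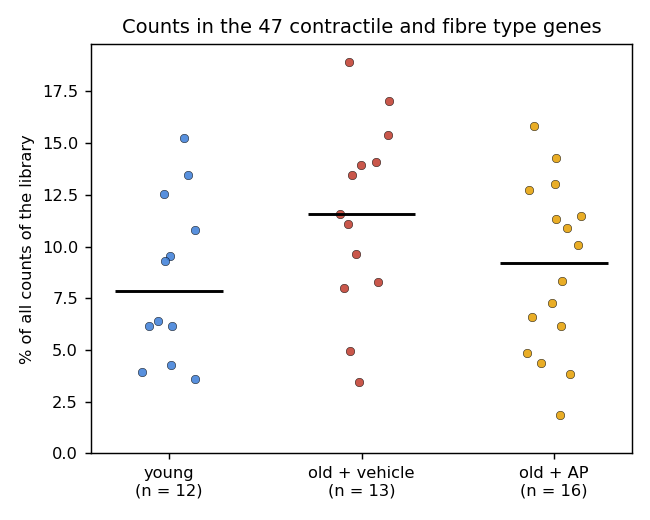
Percent of all counts of a library that fell on the 47 genes, with 1 point a mouse and a black line at the median of each group (7.84% young, 11.6% old + vehicle-treated, 9.21% old + AP-treated). Every group covers a wide range, and the ranges overlap.

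Per length, the level of Acta1, the skeletal muscle actin, was the highest of the members at a mean of 6644 CPM per kb over all mice, followed by the fast troponin T gene Tnnt3 at 4945 and the fast troponin C gene Tnnc2 at 3918. The lowest levels per length were those of the developmental myosins Myh8 (11.1 CPM per kb) and Myh3 (12.7) and of the slow calsequestrin Casq2 (19.1). By CPM alone, the fast SERCA pump Atp2a1 (mean 11582 CPM) and Acta1 (9520) were the highest, and Sln (15.7 CPM), which encodes the SERCA inhibitor sarcolipin, and Casq2 (52.3) the lowest. Reads of the highly similar fast and developmental myosin genes, which lie beside each other on chromosome 11, may be split between them, and the Myh8 exon length of 11772 bases, long for such a gene, lowers its value per kb. Of the 47 members, 29 shared no exon base with another gene in GENCODE M21. The others include Tnnc2, with 74.0% of its exon bases also in Ube2c on the opposite strand, Atp2a1 with 21.9% in Rabep2 and Cacna1s with 20.0% in an antisense gene, and the strand setting of the counting is not given in the sources used here.

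The members varied widely and together from mouse to mouse. The SD of log2 CPM within groups had a median of 0.92 over the members, against 0.37 over all 19292 tested genes, of which 4.91% had an SD above the members' median. Over 1081 pairs of members, the within-group correlation of log2 CPM over 41 mice had a median r of 0.85, with 427 pairs above 0.9. These mice share their library totals and their amount of muscle across genes, so the values are a description. The fast troponin T gene Tnnt3 followed a muscle reference, the mean log2 CPM of 10 muscle genes outside the 47 (Ampd1, Apobec2, Jph1, Jsrp1, Klhl41, Myom1, Pgam2, Pygm, Srl and Tmod4), with r = 0.99. The slow myosin and slow troponin genes followed it less, with r = 0.55 for Myh7 and 0.54 for Tnnc1, Tnnt1 and Tnni1. Among genes set as the slow partner in ratios below, Mybpc1 (r = 0.95) and Actn2 (0.89) followed it more closely. The tropomyosin Tpm3, which is also used outside muscle, had the lowest value, r = 0.29. The tested genes outside the muscle lists that were most alike to the reference over the 41 mice were Cacng6 (r = 0.99), Pfkm (0.99), Tcea3 (0.99), Epm2a (0.99) and Aldoa (0.98).

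In old + vehicle-treated against young mice, 12 of the 47 members were higher and none lower by edgeR's quasi-likelihood test (call thresholds of 0.05 on the p adjusted by Benjamini-Hochberg over all genes and 0.5 on the absolute log2 fold change), where 4.3% of all tested genes were called higher. The 12 were the calcium handling genes Ryr1, Sln, Atp2a2, Atp2a1 and Cacna1s, the slow genes Myh7, Tnnt1 and Tnni1, the Z-disc genes Des (desmin) and Actn2 (alpha-actinin 2), Acta1 and Tpm3. Over all 47 the median log2 fold change was 0.56, with 44 values above 0, against 0.01 over all tested genes. Since the members vary together, these values are not separate observations.

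Ryr1 in young mice ranged from 227 to 1421 CPM with a median of 684, in old + vehicle-treated mice from 472 to 3696 (median 1661) and in old + AP-treated mice from 278 to 2596 (median 1310). Of the 13 old + vehicle-treated mice, 8 were above the highest young mouse. The log2 fold change of old + vehicle-treated against young was 1.5 ± 0.34 (SE, adjusted p = 0.00155), and that of old + AP-treated against young was 0.96 ± 0.32 (adjusted p = 0.0339). Des, the intermediate filament that links Z-discs, ranged from 347 to 1906 CPM in young (median 892), from 693 to 4366 in old + vehicle-treated (median 2137) and in old + AP-treated mice from 283 to 2916 (median 1476), and 8 of 13 old + vehicle-treated mice exceeded all young mice. Its change with age was 1.19 ± 0.31 (adjusted p = 0.00498). Atp2a1 ranged from 2260 to 14629 CPM in young (median 7955), from 3046 to 30382 in old + vehicle-treated (median 15108) and in old + AP-treated mice from 1768 to 23532 (median 11293), with overlapping groups and a change with age of 1.03 ± 0.35 (adjusted p = 0.0305). Acta1 was between 2291 and 15980 CPM in young (median 6708), between 3645 and 20734 in old + vehicle-treated (median 14428) and between 1300 and 18433 in old + AP-treated mice (median 7626). The groups overlapped, with 5 of 13 old + vehicle-treated mice above every young mouse. Here the change with age was 0.90 ± 0.33 (adjusted p = 0.0492), and it lost the call when any 1 of 18 of the 25 mice was left out.

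Atp2a2 lay between 184 and 680.2 CPM in young (median 369), between 338 and 1804 in old + vehicle-treated (median 675) and between 268 and 2886 in old + AP-treated mice (median 473). Actn2 lay between 141 and 1141 CPM in young (median 462), between 416 and 1615 in old + vehicle-treated (median 867) and between 147 and 1708 in old + AP-treated mice (median 620.0). Of the 13 old + vehicle-treated mice, 6 for Atp2a2 and 5 for Actn2 exceeded all young mice. Their changes with age were 1.18 ± 0.33 (adjusted p = 0.00853) and 0.98 ± 0.35 (adjusted p = 0.0444). Tpm3 lay between 249 and 654 CPM in young (median 368), between 254 and 888 in old + vehicle-treated (median 521) and between 290.1 and 1326 in old + AP-treated mice (median 392.04), and Cacna1s between 107 and 577, between 136 and 1235 and between 74.4 and 817, with medians of 268, 497 and 377. In both the groups overlapped, and the changes with age were 0.56 ± 0.20 (adjusted p = 0.0383) and 0.98 ± 0.32 (adjusted p = 0.0281).

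The calls of Ryr1, Des, Atp2a2, Sln and Myh7 held without any single mouse, whereas those of the other 7 did not, and the count of members called lay between 5 (without young mouse 33, 39 or 41) and 16 (without young mouse 40). Without the filter on low counts 8 were called, and Tnni1, Tpm3, Acta1 and Actn2 were not. When each library's trend of counts on length and GC content was removed, a step chosen after seeing the data, 10 were called higher (3.93% of all tested genes): Acta1 (adjusted p = 0.0745), Actn2 (0.0593) and Tnni1 (0.0671) were lost and titin (Ttn, 0.98, adjusted p = 0.0237) was added. The fast troponins and the fast light chains were not called: the changes of Tnnt3, Tnni2, Tnnc2, Mylpf and Myl1 lay between 0.02 and 0.18. The fast heavy chains had values of 0.82 ± 0.35 for Myh1 (adjusted p = 0.0969), 0.31 ± 0.38 for Myh2 and 0.45 ± 0.38 for Myh4.

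Between the 2 old groups, given AP or vehicle, no member was called, and 0.0726% of all tested genes were called in either direction. All 47 values were below 0, from -0.89 to -0.20 with a median of -0.46, while over all tested genes 9761 of 19292 were below 0. Because the members vary together with the muscle level of each mouse, the 47 values are not separate observations. The mean of the muscle reference was 8.53 in old + vehicle-treated and 8.05 in old + AP-treated mice. An unadjusted p under 0.05 was reached by 6 of 47 members and by 23.9% of all tested genes (edgeR), and DESeq2 called 0 as well. The 4 lowest values were those of slow genes, with -0.89 ± 0.42 (95% interval -1.72 to -0.07) for Tnni1, -0.87 ± 0.41 (-1.67 to -0.06) for Tnnc1, -0.84 ± 0.45 (-1.73 to 0.05) for Myh7 and -0.79 ± 0.39 (-1.56 to -0.03) for Tnnt1, and each p failed the adjustment over all genes. For Ryr1 the difference was -0.54 ± 0.31 (-1.14 to 0.06).

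In old + AP-treated against young mice, 2 of the 47 members were higher, Ryr1 and Sln, and none lower, beside 3.73% of all tested genes called higher. Sln ranged from 0.74 to 18.95 CPM in young (median 5.27), from 4.12 to 43.8 in old + vehicle-treated (median 18.99) and in old + AP-treated mice from 2.57 to 45.6 (median 11.8). Its log2 fold changes against young were 1.83 ± 0.48 (adjusted p = 0.00576) in old + vehicle-treated and 1.31 ± 0.46 (adjusted p = 0.0424) in old + AP-treated mice, and the second was lost without any 1 of 15 of the 28 mice. Both comparisons use the same young mice. Ryr1 lost its call in old + AP-treated mice without AP mouse 9 or 26 or without young mouse 32, 33, 38, 39 or 41, with adjusted p up to 0.0586. Neither gene was called without the filter on low counts.

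Because most members followed the muscle reference from mouse to mouse, they were also compared at matched muscle level, in the same model with the muscle reference as a covariate. The reference itself ranged from 6.90 to 9.17 (mean log2 CPM) in young, from 6.85 to 9.66 in old + vehicle-treated and in old + AP-treated mice from 5.92 to 9.22, with medians of 8.09, 8.73 and 8.21. A value at matched muscle level is a change at a given mean of these 10 genes. The slope on that mean was fitted for each gene, so the value is not a plain difference from the 10 genes. Of the 10 genes, 2, Ampd1 (lower) and Jsrp1 (higher), were themselves called at matched muscle level in old + vehicle-treated against young mice. Over the members, the median SE of this comparison was 0.34 without the covariate and 0.12 with it.

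At matched muscle level, 8 members were higher and 3 lower in old + vehicle-treated against young mice, where 4.45% of tested genes were called higher and 4.81% lower. Higher were Sln, Myh7, Tnni1, Tnnt1, Ryr1, Atp2a2, Des and Actn2. Lower were Pvalb, Casq1 (the fast calsequestrin, which stores calcium in the sarcoplasmic reticulum) and Tpm1 (alpha-tropomyosin). In old + AP-treated against young mice, 7 were higher (Sln, Myh7, Ryr1, Atp2a2, Atp2a1, Des and Actn2) and 4 lower (Pvalb, Tpm1, Casq1 and Tnnc2), beside 4.77% and 5.77% of tested genes. Between the old groups no member was called, at a share of 0.00518% of tested genes in either direction, with 2 members, Acta1 and Des, at an unadjusted p under 0.05 (edgeR; 19% of all tested genes) and 0 called by DESeq2. With Ckm, the muscle creatine kinase, in place of the 10 genes, the calls against young became 16 higher and 1 lower in old + vehicle-treated mice, beside 4.84% and 4.86% of tested genes, and 18 higher and 0 lower in old + AP-treated mice, beside 5.12% and 5.35%. Ckm itself had values of -0.26 ± 0.11 (adjusted p = 0.0835) and -0.46 ± 0.10 (adjusted p = 0.000936) at matched muscle level. Relative to Ckm the lower calls of Casq1, Tpm1 and Tnnc2 were lost, as was that of Pvalb in old + AP-treated mice, so these are lower relative to the 10 genes. With the reference as a fixed offset the calls of Tnni1, Tnnt1, Atp2a2 and Actn2 in old + vehicle-treated and of Sln, Myh7, Atp2a2 and Actn2 in old + AP-treated mice were lost.

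**Figure D2:**
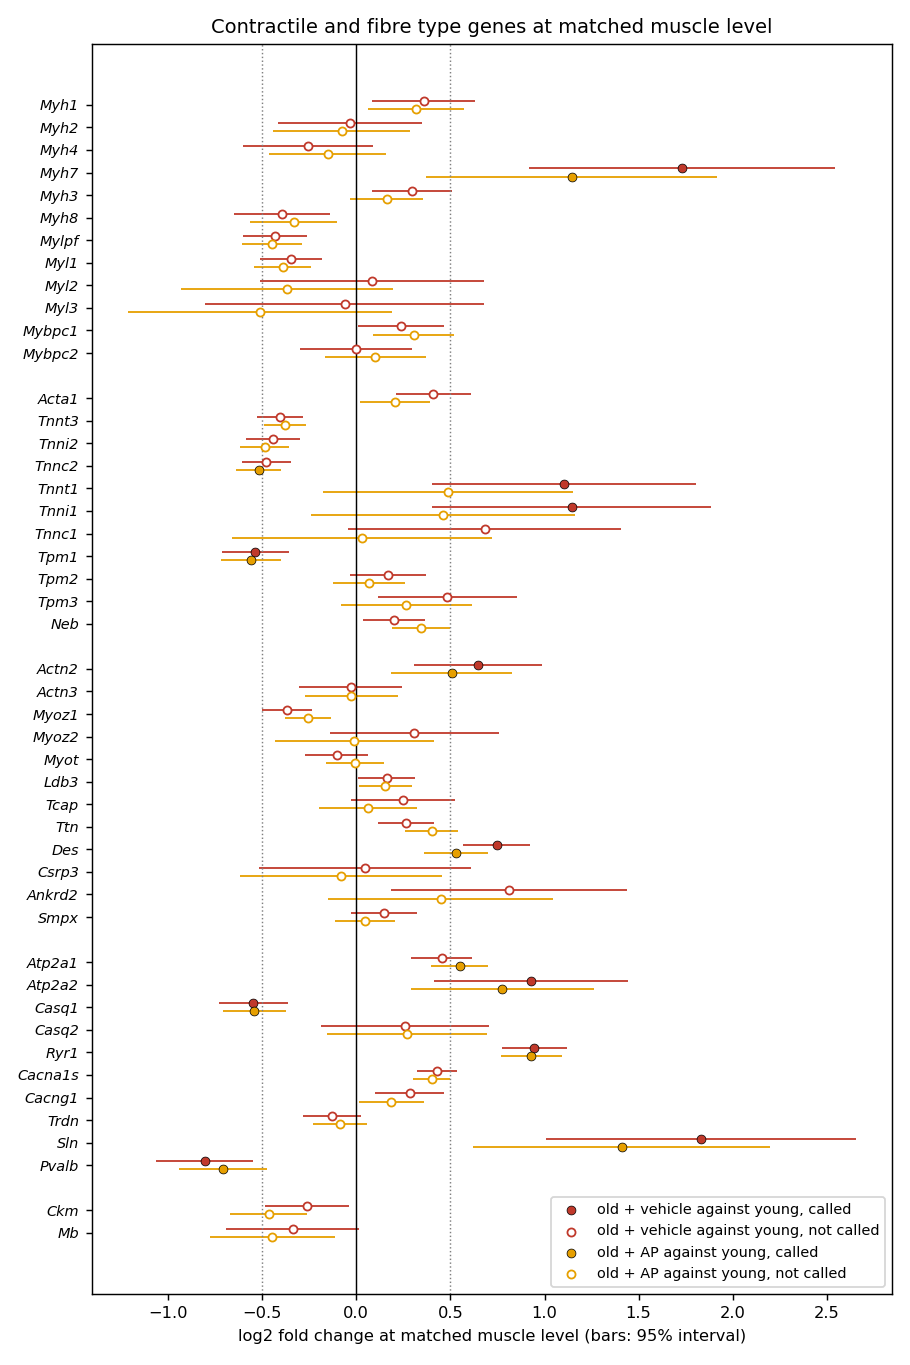
Log2 fold change at matched muscle level of each of the 47 genes in old + vehicle-treated (red) and old + AP-treated (orange) against young mice, with 95% intervals, grouped from top to bottom into thick filament, thin filament, Z-disc, calcium handling and energy genes. Filled points passed the adjusted p and the dotted fold thresholds of 0.5. Sln and Myh7 lie farthest to the right and Pvalb farthest to the left, and the paired values of a gene share the young mice.

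Among the calcium handling genes, Ryr1 separated the ages most clearly. Its level relative to the reference (log2 CPM minus the reference) ranged from 0.86 to 1.52 in young mice, from 1.64 to 2.79 in old + vehicle-treated and in old + AP-treated mice from 1.87 to 2.35. Every old mouse, 13 of 13 and 16 of 16, lay above every young mouse. The share of all tested genes that separate the ages in this way is not given here. These and the like counts of other members are therefore descriptions. The changes at matched muscle level were 0.95 ± 0.09 (adjusted p = 1.08e-09) and 0.93 ± 0.08 (adjusted p = 1.12e-10), and the difference between the old groups was -0.02 ± 0.08 (95% interval -0.18 to 0.15). Cacna1s, the voltage sensor that opens Ryr1, showed the same separation, from -0.22 to 0.07 in young, from 0.12 to 0.65 in old + vehicle-treated and in old + AP-treated mice from 0.20 to 0.45. Its changes were 0.43 ± 0.05 (adjusted p = 2.66e-07) and 0.40 ± 0.05 (adjusted p = 2.29e-07), under the fold threshold.

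**Figure D3:**
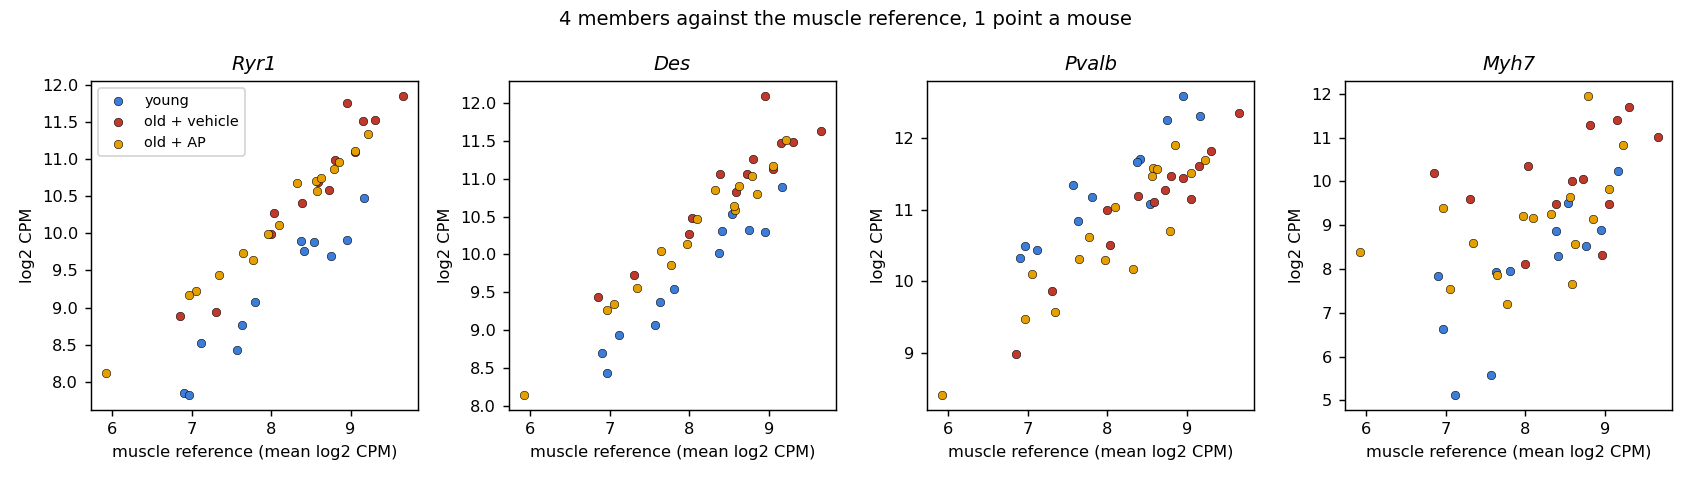
Log2 CPM of Ryr1, Des, Pvalb and Myh7 against the muscle reference, with 1 point a mouse coloured by group. At a given reference level the old mice of both groups lie above the young mice for Ryr1 (13 of 13 and 16 of 16 above every young mouse after subtraction of the reference), whereas for Pvalb they lie below the young median, and Myh7 scatters most.

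The fast SERCA pump Atp2a1 was higher at matched muscle level by 0.45 ± 0.08 in old + vehicle-treated (adjusted p = 8.58e-05, under the fold threshold) and by 0.55 ± 0.08 in old + AP-treated mice (adjusted p = 1.51e-06). Its levels relative to the reference were 4.18 to 4.92 in young, 4.72 to 5.54 in old + vehicle-treated and 4.80 to 5.52 in old + AP-treated mice, and 11 of 13 and 14 of 16 old mice lay above the highest young mouse. Atp2a2, the pump of slow fibres and of many other cells, was higher by 0.93 ± 0.26 (adjusted p = 0.00728) and 0.78 ± 0.25 (adjusted p = 0.0159), with wide overlap: 5 of 13 and 5 of 16 old mice exceeded the young range. Without old + AP-treated mouse 28 the value of Atp2a2 was 0.49 (adjusted p = 0.056). Sln was higher by 1.83 ± 0.42 (adjusted p = 0.00117) and 1.41 ± 0.40 (adjusted p = 0.0075).

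Pvalb, the calcium buffer parvalbumin of fast fibres, moved the other way. Its level was 1281 to 6112 CPM in young (median 2447), 509 to 5201 in old + vehicle-treated (median 2334) and 344 to 3823 in old + AP-treated mice (median 1622). Relative to the reference it lay between 2.53 and 3.77 in young, between 2.10 and 2.995 in old + vehicle-treated and between 1.86 and 3.06 in old + AP-treated mice, so that all 29 old mice were below the young median. The changes at matched muscle level were -0.80 ± 0.13 (adjusted p = 1.89e-05) and -0.71 ± 0.12 (adjusted p = 2.82e-05). Casq1 ranged relative to the reference from 1.47 to 2.05 in young, from 0.82 to 1.501 in old + vehicle-treated and in old + AP-treated mice from 0.66 to 1.51, with 12 of 13 and 14 of 16 old mice below every young mouse. It was lower by -0.55 ± 0.09 (adjusted p = 3.73e-05) and -0.54 ± 0.09 (adjusted p = 1.11e-05). The remaining calcium handling genes, Casq2, Cacng1 (a subunit of the voltage sensor) and Trdn (triadin, which binds the ryanodine receptor), were not called in either fit.

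Of the 3 fast troponins of the thin filament, Tnnc2 was called lower at matched muscle level in old + AP-treated mice and the others in neither comparison. Relative to the reference Tnnc2, most of whose exon bases also lie in Ube2c, lay between 3.33 and 3.83 in young, between 2.89 and 3.25 in old + vehicle-treated and between 2.72 and 3.34 in old + AP-treated mice. All 13 old + vehicle-treated and 15 of 16 old + AP-treated mice were below the lowest young mouse. The changes were -0.48 ± 0.07 (adjusted p = 1.62e-06, under the fold threshold) and -0.52 ± 0.06 (adjusted p = 9.27e-08), and the second lost the fold threshold without AP mouse 18 or 19 or young mouse 37 or 38, at values down to -0.49. Tnnt3 had values of -0.41 ± 0.06 and -0.38 ± 0.06 and Tnni2 of -0.44 ± 0.07 and -0.49 ± 0.07, all 4 at adjusted p of 2.37e-05 or less and under the fold threshold. Tnnt3 ranged from 2679 to 13414 CPM in young (median 6416), from 1798 to 15910.1 in old + vehicle-treated (median 7697) and in old + AP-treated mice from 976 to 10729 (median 6163). Tnni2 ranged from 1327 to 6927 CPM in young (median 3065), from 912 to 6815 in old + vehicle-treated (median 3558) and in old + AP-treated mice from 418 to 5289 (median 3073). In both genes the groups overlapped in CPM. Relative to the reference, 13 of 13 and 15 of 16 old mice for Tnnt3 were below the lowest young mouse. For Tnni2 11 of 13 and 15 of 16 were. The fast light chains Mylpf and Myl1 had values between -0.45 and -0.35 in both comparisons, at adjusted p of 0.002 or less. Tpm1, whose product covers the myosin sites on actin and which many other cells use, lay relative to the reference between 3.87 and 4.83 in young, between 3.37 and 3.89 in old + vehicle-treated and between 3.14 and 3.89 in old + AP-treated mice. It was lower by -0.53 ± 0.09 (adjusted p = 2.84e-05) and -0.56 ± 0.08 (adjusted p = 3.4e-06), with 12 of 13 and 14 of 16 old mice below every young mouse, and of the single mice left out only young mouse 38 took its values under the fold threshold, at -0.48 and -0.50. Acta1 was 0.41 ± 0.10 in old + vehicle-treated (adjusted p = 0.00233, under the fold threshold) and 0.21 ± 0.09 in old + AP-treated mice (adjusted p = 0.0903).

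The genes of slow fibres were higher with age in part. Myh7 ranged from 34.9 to 1214 CPM in young (median 281), from 277 to 3348 in old + vehicle-treated (median 1069) and in old + AP-treated mice from 147 to 3967 (median 569). The groups overlapped, with 12 of 13 and 12 of 16 old mice above the young median. Its change against young was 1.90 ± 0.51 (adjusted p = 0.00685) without the covariate and 1.73 ± 0.41 (adjusted p = 0.00181) at matched muscle level in old + vehicle-treated mice, and 1.06 ± 0.48 (adjusted p = 0.117) and 1.14 ± 0.39 (adjusted p = 0.0244) in old + AP-treated mice. Without AP mouse 28 the last value was 0.80 (adjusted p = 0.0925). The difference between the old groups at matched muscle level was -0.58 ± 0.38, with a 95% interval from -1.32 to 0.15.

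The slow troponin T gene Tnnt1 ranged from 20.8 to 432 CPM in young (median 137), from 108 to 832 in old + vehicle-treated (median 324) and in old + AP-treated mice from 59.4 to 1033 (median 157). The slow troponin I gene Tnni1 ranged from 10.49 to 331 CPM in young (median 68.8), from 57.6 to 526 in old + vehicle-treated (median 204) and in old + AP-treated mice from 30.5 to 564 (median 96.1). In both genes the 3 groups overlapped. At matched muscle level Tnnt1 was higher by 1.11 ± 0.36 (adjusted p = 0.0183) and Tnni1 by 1.14 ± 0.38 (adjusted p = 0.021) in old + vehicle-treated mice, and in old + AP-treated mice the values were 0.49 ± 0.34 and 0.46 ± 0.36 (adjusted p = 0.279 and 0.341). Both calls were lost without old + vehicle-treated mouse 7, with 0.93 (adjusted p = 0.0528) for Tnnt1 and 0.96 (adjusted p = 0.0568) for Tnni1. The third slow troponin, Tnnc1, had a value of 0.68 ± 0.37 (adjusted p = 0.171) and the slow light chains Myl2 and Myl3 had values of 0.08 ± 0.30 and -0.06 ± 0.38, none of them called. Of the 6 slow filament genes 3 were called higher in old + vehicle-treated mice, beside 4.45% of tested genes, and 1, Myh7, in old + AP-treated mice, beside 4.77%. Relative to the reference, Myh7 varied within groups with Tnnt1 (r = 0.98), Tnni1 (0.98), Tnnc1 (0.96), Myl2 (0.91), Myl3 (0.86) and Atp2a2 (0.82) and less with Sln (0.58) over the 41 mice.

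Ratios of a slow to a fast gene within each mouse use no muscle reference, and 0.1 CPM was added to each level. For 12 such pairs, 2 pairs of fast myosins and 2 of developmental to adult myosins, the 3 comparisons gave 48 two-sided permutation tests. Among these pairs, Actn2 is used in all fibres, and Atp2a2, Tpm3 and Tpm1 are also used by other cells. Ratios with these genes do not stand for fibre type alone. Past an adjusted p of 0.05 were 3 ratios in old + vehicle-treated against young mice, 0 between the old groups and 1 in old + AP-treated against young mice. At an unadjusted permutation p under 0.05 the counts were 9, 0 and 4 of 16. The 12 slow to fast ratios varied together within groups, with a median r of 0.82 (0.34 to 0.99) over 66 pairs of ratios. They are not separate observations. The log2 ratio Myh7:Myh4 was between -7.33 and -3.44 in young (median -4.45), between -5.88 and -0.32 in old + vehicle-treated (median -2.72) and between -5.38 and -0.36 in old + AP-treated mice (median -3.59). Its mean was higher by 1.86 ± 0.55 (SE) in old + vehicle-treated than in young mice (permutation p = 0.00262, adjusted p = 0.042), in 11 of 13 mice above the young median. Tnnt1:Tnnt3 was higher by 1.34 ± 0.41 (permutation p = 0.0032, adjusted p = 0.042) and Tnni1:Tnni2 by 1.44 ± 0.43 (permutation p = 0.00271, adjusted p = 0.042), each in 12 of 13 mice. In old + AP-treated mice the same ratios were higher than in young by 1.21 ± 0.48, 0.78 ± 0.38 and 0.88 ± 0.40 (permutation, adjusted p = 0.125, 0.179 and 0.161).

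The ratio Casq2:Casq1, between the slow and the fast calsequestrin, was higher by 0.87 ± 0.27 in old + AP-treated than in young mice (permutation p = 0.0035, adjusted p = 0.042), in 15 of 16 mice above the young median, and by 0.78 ± 0.27 in old + vehicle-treated mice (adjusted p = 0.0935, permutation). Casq2 itself ranged from 10.9 to 120 CPM in young, from 22.6 to 107 in old + vehicle-treated and in old + AP-treated mice from 12.8 to 157, and it was not called, with 0.26 ± 0.23 and 0.27 ± 0.22 at matched muscle level. Among the slow to fast ratios that missed the adjusted threshold, beside Casq2:Casq1, in old + vehicle-treated against young mice, 3 more had an unadjusted permutation p under 0.05: Tnnc1:Tnnc2 differed by 1.05 (95% interval 0.23 to 1.87, adjusted p = 0.125), Actn2:Actn3 by 0.67 (0.08 to 1.26, adjusted p = 0.161) and Tpm3:Tpm1 by 0.62 (0.07 to 1.17, adjusted p = 0.161). Myoz2:Myoz1 differed by 0.57 (0.02 to 1.13, permutation p = 0.056). Of the other ratios, Myh1:Myh4 differed by 0.66 (0.13 to 1.19, permutation p = 0.0208, adjusted p = 0.125) and Myh3:Myh4 by 0.52 (0.04 to 0.995, permutation p = 0.0458, adjusted p = 0.169). The intervals of other slow to fast ratios held 0, with 0.37 (-0.30 to 1.04) for Myl2:Mylpf, 0.17 (-0.66 to 0.999) for Myl3:Myl1 and 0.11 (-0.46 to 0.68) for Atp2a2:Atp2a1. Between the old groups Myh7:Myh4 differed by -0.66 (-1.68 to 0.37). The 3 ratios of old + vehicle-treated mice passed in 11 of the 25 fits that left out 1 mouse and Casq2:Casq1 in 10 of 28, with adjusted p up to 0.0883. All 4 were lost when medians were compared in place of means.

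**Figure D4:**
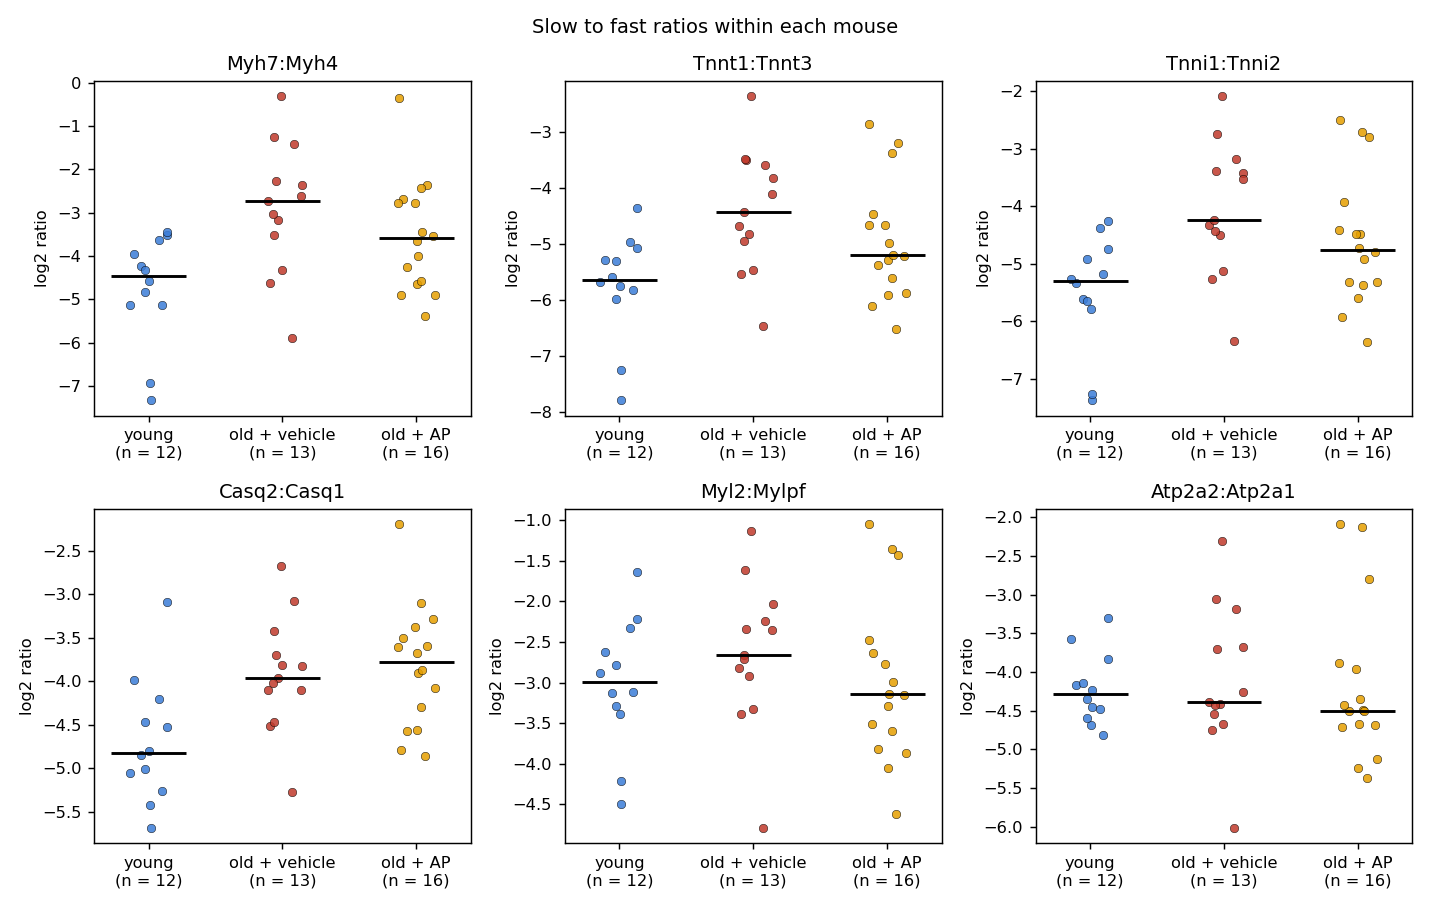
Log2 ratio of a slow to a fast gene within each mouse for 6 pairs, with 1 point a mouse and a black line at the group median. Myh7:Myh4 has medians of -4.45 in young, -2.72 in old + vehicle-treated and -3.59 in old + AP-treated mice, and the groups overlap in all 6 panels.

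As shares of the 6 myosin heavy chains per kb, Myh4 had the largest median in every group, at 51.9% in young, 48.5% in old + vehicle-treated and 47.9% in old + AP-treated mice. Myh1 followed with 27.5%, 32.6% and 32.98% and Myh2 with 13.8%, 13.4% and 13.1%. The slow Myh7 made up 0.34% to 3.33% in young (median 1.59%), 0.75% to 16.6% in old + vehicle-treated (median 3.92%) and 0.76% to 14.1% in old + AP-treated mice (median 2.78%). The highest shares were those of old + vehicle-treated mouse 7 and old + AP-treated mouse 28. The developmental genes Myh3 and Myh8 stayed below 1% in all 41 mice. In CPM, Myh3 ranged from 20.9 to 94.8 in young, from 30.003 to 174 in old + vehicle-treated and in old + AP-treated mice from 11.4 to 137, and Myh8 from 49.0 to 264, from 20.6 to 327 and from 23.7 to 215. At matched muscle level Myh3 had values of 0.30 ± 0.11 (adjusted p = 0.036) and 0.16 ± 0.10 and Myh8 of -0.39 ± 0.13 (adjusted p = 0.021) and -0.33 ± 0.12 (adjusted p = 0.0284) against young, all under the fold threshold. Among the adult fast genes Myh1 had 0.36 ± 0.14 (adjusted p = 0.0487) and 0.32 ± 0.13, Myh2 -0.03 ± 0.20 and -0.08 ± 0.19, and Myh4 -0.26 ± 0.18 and -0.15 ± 0.16.

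**Figure D5:**
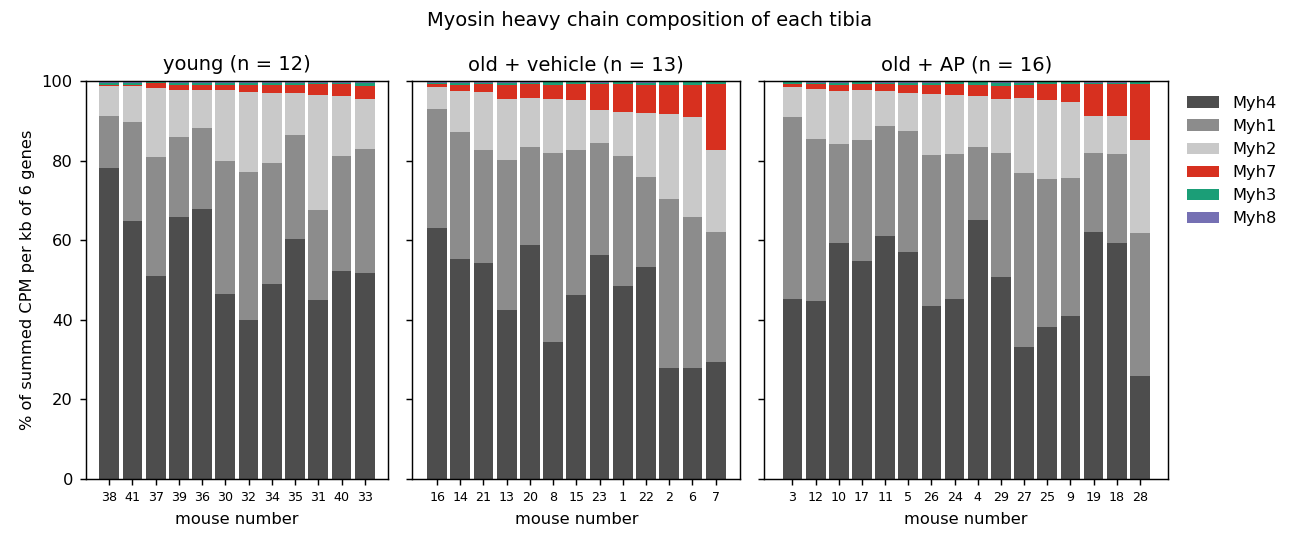
Share of each of the 6 myosin heavy chain genes in their summed CPM per kb, with 1 bar a mouse, ordered within each group by the share of the slow gene Myh7 (red). Grey shades are the fast genes Myh4, Myh1 and Myh2, and Myh3 and Myh8 are thin bands below 1%. Myh7 reaches 16.6% in mouse 7 and 14.1% in mouse 28, and at most 3.33% in young mice.

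At the Z-disc, Des and Actn2 were called higher at matched muscle level in both comparisons against young, 2 of 12 beside 4.45% and 4.77% of tested genes. Relative to the reference Des lay between 1.34 and 1.99 in young, between 1.97 and 3.14 in old + vehicle-treated and between 1.95 and 2.53 in old + AP-treated mice. Of the old mice, 12 of 13 and 15 of 16 were above the highest young mouse. Its changes were 0.75 ± 0.09 (adjusted p = 1.93e-07) and 0.53 ± 0.09 (adjusted p = 1.55e-05), and between the old groups it was -0.22 ± 0.08 (adjusted p = 0.162). Actn2, used in all fibres, was higher by 0.65 ± 0.17 (adjusted p = 0.00479) and 0.51 ± 0.16 (adjusted p = 0.0168), while Actn3, the isoform of fast fibres, had values of -0.03 ± 0.14 and -0.03 ± 0.13. The Actn2 call in old + AP-treated mice was close to the fold threshold and held in 17 of 28 fits that left out 1 mouse. Titin (Ttn) was 0.26 ± 0.08 and 0.40 ± 0.07 (adjusted p = 0.00834 and 5.89e-05) and nebulin (Neb), of the thin filament, 0.20 ± 0.08 and 0.34 ± 0.08 (adjusted p = 0.0718 and 0.00105), all under the fold threshold. Myoz1, the fast Z-disc gene, was -0.37 ± 0.07 and -0.26 ± 0.06. Ankrd2, a stretch-responsive gene more used in slow muscle, was 0.81 ± 0.32 (adjusted p = 0.0531) and 0.45 ± 0.31. Myoz2, Myot, Ldb3, Tcap, Csrp3 and Smpx were not called, at values between -0.10 and 0.31. Outside these groups Mybpc1, Mybpc2, Tpm2 and Mb were called in no comparison and Tpm3 in none at matched muscle level, with Mb at -0.34 ± 0.18 and -0.45 ± 0.17.

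Without the fold threshold, 25 members (15 higher, 10 lower) at matched muscle level passed the adjusted p in old + vehicle-treated against young mice, beside 14.4% of tested genes higher and 13.5% lower, and 23 (11 higher, 12 lower) in old + AP-treated against young mice, beside 17.2% and 14%. Across the 47 genes the log2 fold change at matched muscle level was set against log2 exon length. In old + vehicle-treated mice the Pearson r was 0.14 and the Spearman rho 0.25, and in old + AP-treated mice 0.32 and 0.40. Over 19192 tested genes outside muscle the Pearson r was -0.05 and -0.02. With the trend on length and GC content removed, the Pearson r over the 47 genes was 0.22 and 0.35, not lower than before. Genes are not independent replicates, and these are descriptions. With the trend on length and GC content removed, at matched muscle level Ryr1 was 0.93 and 0.96, Des 0.71 and 0.50, Pvalb -0.75 and -0.69 and Casq1 -0.55 and -0.56, of which only Des in old + AP-treated mice was then under the fold threshold. This removal gave 10 higher and 5 lower members in old + vehicle-treated against young mice, beside 4.28% and 4.33% of tested genes. The 4 calls it added were Ttn (0.57, adjusted p = 3.85e-05) and Tpm3 (0.52, adjusted p = 0.0445) as higher and Tnni2 (-0.51, adjusted p = 1.57e-06) and Tnnc2 (-0.53, adjusted p = 3.73e-07) as lower. Neb was 0.38 (adjusted p = 0.000483), under the fold threshold. In old + AP-treated against young mice 6 were higher and 4 lower, beside 5.19% and 5.64%, and Ttn was added (0.62, adjusted p = 3.17e-06). Actn2 in old + AP-treated mice also lost its call with this trend or with a length trend alone removed, and Tnnc2 with the length trend alone. No batch is labelled, and young mice carry numbers apart from those of old mice, so a batch that followed age and age itself cannot be told apart.

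Of 53 muscle genes outside the 47, among them the 10 of the reference, 11 were higher and 1 lower in old + vehicle-treated against young mice, where 4.3% of tested genes were called higher and 4.76% lower. Between the old groups 0 were called, with 6 at an unadjusted p under 0.05 (edgeR; 23.9% of tested genes), and 1 was higher and 1 lower in old + AP-treated against young mice, beside 3.73% and 4.85%. At matched muscle level, over the 43 genes that are not in the reference, 8 were higher and 4 lower in old + vehicle-treated (4.45% and 4.81% of tested genes) and 10 higher and 5 lower in old + AP-treated against young mice (4.77% and 5.77%), while 0 were called between the old groups and 6 had an unadjusted p under 0.05 (edgeR; 19% of tested genes). Among those higher in old + vehicle-treated mice were Myom3, an M-band protein (1.15 ± 0.20), Hspb7, a small heat shock protein (1.13 ± 0.21), Mypn, myopalladin of the Z-disc (0.90 ± 0.11), Trim54, a ubiquitin ligase of the sarcomere (0.88 ± 0.13), and Xirp1 (0.73 ± 0.23), each at adjusted p of 0.0149 or less. Actc1, the cardiac actin that is also made by immature muscle, was lower by -1.84 ± 0.25 (adjusted p = 1.08e-06) and -1.59 ± 0.23 (adjusted p = 2.22e-06). Dhrs7c, a reductase of the sarcoplasmic reticulum, was lower by -0.67 ± 0.09 (adjusted p = 1.46e-06) and -0.51 ± 0.09 (adjusted p = 2.21e-05). The level of Actc1 was 8.26 to 85.5 CPM in young, 3.48 to 36.4 in old + vehicle-treated and 2.88 to 52.8 in old + AP-treated mice.

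Smooth and heart muscle share some of the members. The 8 smooth muscle markers summed to 290.2 to 425 CPM in young, 265 to 614 in old + vehicle-treated and 211 to 529 in old + AP-treated mice, and 1 of 8 was called higher (Lmod1, beside 4.3% of tested genes) and none at matched muscle level in old + vehicle-treated against young mice. Heart genes (6 listed: Myh6, Myl7, Tnnt2, Tnni3, Mybpc3 and Nppa), of which 4 were tested, summed to 7.90 to 87.3, 17.2 to 79.5 and 10.3 to 99.1 CPM, with medians of 24.5, 30.6 and 17.5. Against young, 2 of the 4 tested, Tnni3 and Mybpc3, were lower in both old groups, without the covariate (beside 4.76% and 4.85% of tested genes) and with it, and Myh6 and Tnnt2 were not called. No marker of either list was at 0 in a whole group. Over the 41 mice the within-group correlation of the smooth muscle sum (log2 CPM) was r = 0.31 with Tpm1, 0.29 with Des, -0.04 with Tpm3 and -0.01 with Atp2a2. The part of smooth and heart muscle cells in the values of Des, Tpm1, Tpm3 and Atp2a2 was not tested.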

How the data were processed

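RNA-seq of 41 tibia libraries was analysed from raw read counts per gene that the authors deposited. Per the labels and the submitters' processing notes, reads were aligned to GRCm38 with TopHat2 (2.0.6) and counted with HTSeq; the annotation release and the strand setting are not given in the sources used here. Groups were taken from the labels. The paper gives 6 months for the young mice, within the range of the labels.

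Genes were filtered with filterByExpr (19292 of 43346 kept), scaled by TMM and fitted in one model of 3 groups with edgeR 4.0.16 (R 4.3.3), quasi-likelihood test, Benjamini-Hochberg adjusted over all tested genes. A gene was called at an adjusted p under 0.05 and an absolute log2 fold change above 0.5. A second fit added the muscle reference, the mean log2 CPM (prior count 2) of 10 genes, as a covariate. Log2 ratios within mice (0.1 CPM added) were compared by two-sided permutation tests (100000 resamples), adjusted over 48 tests. Errors of fold changes are SE, with 95% intervals. DESeq2 1.42.0, other scalings, filters, covariates, a difference of medians and leaving out each mouse were tried. Python 3.11.15 was used for levels and figures. Scripts were tested on simulated data. No 2 libraries of a group agreed within sampling noise. P-values measure the spread between mice.

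The 47 members and the lists were chosen with earlier results of these data known. Described with group values were the members called in either fit, the 6 myosin heavy chains, members of ratios past the threshold and the 2 highest and 2 lowest by mean CPM. Outside the members, the 5 genes most correlated with the reference, up to 8 called other muscle genes by size of change and examples of the other lists were named. One result that this rule would name is not reported here.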

Additional observations from a re-analysis of the deposited data

How the results depend on the processing

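Each called gene and each ratio past the threshold kept its direction under each alternative, and of 1298 such values 1084 stayed on the same side of the threshold and 214 lost it. The cause was not tested, except where fewer mice or more tested genes are part of the alternative. Without the covariate, the 2 members called in old + AP-treated against young mice became 0 with no filter on low counts and 1 when only the compared groups were fitted. At matched muscle level, the 11 called in old + vehicle-treated against young mice became 17 with Ckm as covariate (16 higher, 1 lower) and 25 with no fold threshold, and the 11 in old + AP-treated against young mice became 7 with the muscle level as offset (3 higher, 4 lower), 18 with Ckm (18 higher, 0 lower) and 23 with no fold threshold. The ratios past the threshold went from 3 to 0 and from 1 to 0 with a difference of medians. Leaving out 1 mouse gave 5 to 16, 0 to 0 and 0 to 4 members called without the covariate (old + vehicle-treated against young, old + AP-treated against old + vehicle-treated, old + AP-treated against young), 9 to 13, 0 to 0 and 8 to 13 at matched muscle level, and 0 to 5, 0 to 0 and 0 to 1 ratios. Removal of a length or of a length and GC trend was chosen after seeing the data. Against young, DESeq2 called 15 and 3 members without the covariate, and 12 and 11 at matched muscle level. No paired analysis was possible because the groups share no replicate numbers. Depth did not limit these genes, whose lowest count in any mouse was 50.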

Other observations

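A list of 6 genes held the myogenic regulators and muscle stem cell genes Pax7, Myf5, Myod1, Myog and Myf6 and the acetylcholine receptor subunit Chrna1. Of the 6, 4 were higher in old + vehicle-treated against young mice without the covariate (edgeR, 4.3% of all tested genes were called higher). Among them was Myog, the myogenin transcription factor of muscle differentiation. In the fits that left out 1 mouse, no gene of the list beyond Myog, Myod1, Myf6 and Chrna1 was called. Myog ranged from 0.96 to 4.41 CPM in young (median 1.92), from 1.97 to 123 in old + vehicle-treated (median 7.18) and in old + AP-treated mice from 1.05 to 22.1 (median 6.10). Myod1, a factor of muscle commitment, ranged from 1.65 to 8.76 CPM (median 4.65), from 4.17 to 70.6 (median 14.9) and from 1.69 to 22.3 (median 9.81). The log2 fold changes of old + vehicle-treated against young were 3.02 ± 0.57 (adjusted p = 0.000248) for Myog and 1.93 ± 0.38 (adjusted p = 0.000402) for Myod1. Without old + vehicle-treated mouse 16, left out after seeing the data, 2 of the 6 were higher, and the values were 1.86 (adjusted p = 0.00152) and 1.53 (adjusted p = 0.00147). The groups overlapped in both genes, and no gene of the list was called between the old groups.

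Markers of other cells in old + vehicle-treated against young mice, without the covariate, gave 4 lower of 5 for B cells (4.76% of all tested genes were called lower), 0 of 7 for neutrophils (2 at an unadjusted p under 0.05, edgeR, beside 31.8% of all tested genes), 0 of 4 for endothelial cells (1 at an unadjusted p under 0.05, edgeR), and 1 higher and 1 lower of 5 each for adipocytes and tendon. Their part in the values of the muscle genes was not tested.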
